A study of Rattus norvegicus with 3 samples.

Results

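Glutamate and GABA receptor genes were examined as the nearest genes of Seh1 peaks in rat oligodendrocyte progenitor cells (OPC). Seh1 is a protein of the nuclear pore complex. A set of 39 receptor genes named for this purpose, 24 for glutamate and 15 for GABA, was looked up by gene name in the authors' annotated peak table, and all 39 were also matched by numeric gene ID to the same 36 peaks. These 36 peaks, out of 9084 annotated OPC peaks, lay nearest to 22 of the 39 genes. The set was put together with earlier results of these data known, so its counts are descriptions.

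Chromatin immunoprecipitation and sequencing was done with a Seh1 antibody on OPC and on immature oligodendrocytes (iOL), OPC that had been given triiodothyronine (T3, 60 nM) for 1 day; iOL were also profiled with IgG. Forebrains of Sprague Dawley rats at postnatal day 1 to 2 were the source, and OPC were grown in medium with PDGF-AA, CNTF, bFGF and NT3; PDGF-AA, bFGF and NT3 were withdrawn for differentiation. Each group had 1 library, so there was no replicate error and no test was made; the IgG profile was not analysed here. Lists of 9117 OPC peaks (205 bp each) and 6704 iOL peaks (209 bp each) on rat build rn6 were compared; read totals are not among the values used here, so depth is unknown. RNA was not measured in these libraries, and cell identity could not be checked by marker levels; Pdgfra, Cspg4, Olig2 and Sox10, genes that mark OPC, were the nearest gene of 0 peaks each.

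OPC receive synapses from neurons and carry receptors for both transmitters. Ionotropic receptors are ion channels: AMPA, kainate and NMDA receptors open to glutamate and pass cations, delta receptors share their fold, and GABA-A receptors pass chloride. Metabotropic receptors act through G proteins; they are the mGlu receptors and the GABA-B receptor. Many of these genes are long, with large introns near their start.

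Ionotropic and metabotropic genes had a peak in similar shares, each with a wide interval. Of 30 ionotropic genes 17 had an OPC peak, 56.7% (exact binomial 95% interval 37.4 to 74.5%), and of 9 metabotropic genes 5 had one, 55.6% (21.2 to 86.3%). Together these were 22 of 39 members, 56.4% (39.6 to 72.2%). Over all 18539 coding genes the share was 30.1%. Among the 320 coding genes that stand within 5 places of a member on either side in gene order, 105 had a peak, 32.8% (27.7 to 38.3%). The intervals cover counting error only, and neighbouring genes are not independent of each other. Gene lengths were not read, so no share of genes given here was matched for length. The part of gene length in these shares was not tested.

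By transmitter, 16 of 24 glutamate receptor genes (66.7%) and 6 of 15 GABA receptor genes (40%) had a peak. By family, a peak was found for 3 of 4 AMPA genes, 3 of 5 kainate genes, 4 of 7 NMDA genes, the delta gene Grid1, 5 of 7 mGlu genes, 6 of 13 GABA-A genes and 0 of 2 GABA-B genes. The 17 members that were nearest to no OPC peak were Gria3, Grik1, Grik5, Grin1, Grin2d, Grin3b, Grm2, Grm6, Gabra3, Gabra4, Gabra5, Gabra6, Gabrb2, Gabre, Gabrq, Gabbr1 and Gabbr2. They include Grin1, the subunit that every NMDA receptor needs, and both subunits of the GABA-B receptor. The 4 members on the X chromosome, Gria3, Gabra3, Gabre and Gabrq, are all among them; on that chromosome 86 of 647 coding genes had a peak, 13.3%.

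**Figure D1:**
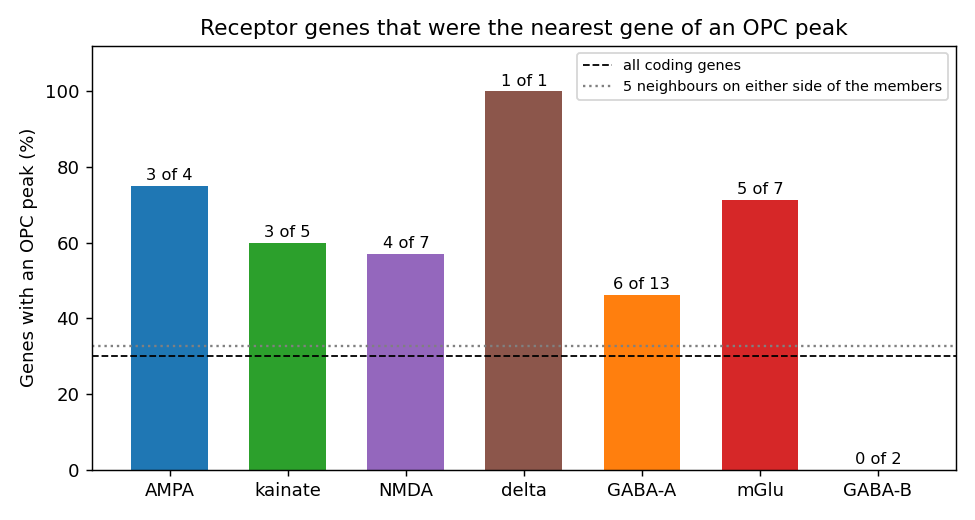
Bars give the percentage of genes in each receptor family that were the nearest gene of an OPC peak, with the count above each bar. The dashed line is the share over all coding genes (30.1%) and the dotted line that of the members' neighbours (32.8%); GABA-B is the family with no bar, 0 of 2 genes.

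The members' share was nearer to that of all genes when peaks had to lie close to start sites. Within 50 kb of a transcription start site (TSS), 12 of 39 members had a peak, 30.8%, against 22.1% of all genes. Within 10 kb, 5 of 39 had one, 12.8%, against 11.1% of all genes; these were Grid1, Gabrg3, Gabrd, Gria2 and Grm8. When only peaks annotated to a transcript of the gene itself counted, its promoter included, 12 of 39 members had a peak, 30.8%, against 12.4% of all genes, with 10 of the 12 ionotropic.

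Peaks next to a start site were found at 3 members, all ionotropic, and each of these genes had a peak in a CpG island of its first intron. CpG islands are stretches rich in the dinucleotide CG, common at promoters. They held 4 of the 36 member peaks, 11.1% (exact binomial 95% interval 3.11 to 26.1%), against 5.37% of all OPC peaks. Island labels are given in introns and between genes only, and the mix of classes differs between members and list. In introns the shares were 13.6% of 22 member peaks (2.91 to 34.9%) and 7.28% of other peaks. Between genes they were 8.33% of 12 (0.211 to 38.5%) and 5.66%. Island peaks of first introns were not counted over all genes. The start regions available for members show how different they are. The 250 bases before the gene start are given, 5′ to 3′, from RefSeq on build GRCr8, with every CG in capitals: Gabrd and Gabrg3 have a peak just downstream, Gabbr2 is as rich in CG and has no peak, and Grm8 has the median number of CG over all promoters and has its peak in an island farther upstream.
Gabrd, chr5:171252710-171252959, minus strand: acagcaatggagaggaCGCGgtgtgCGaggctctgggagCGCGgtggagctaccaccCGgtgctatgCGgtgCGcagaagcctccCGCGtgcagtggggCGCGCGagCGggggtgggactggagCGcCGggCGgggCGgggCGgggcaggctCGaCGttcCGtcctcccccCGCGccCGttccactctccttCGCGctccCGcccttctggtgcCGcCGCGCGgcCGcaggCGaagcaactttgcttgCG
Gabrg3, chr1:117382458-117382707, minus strand: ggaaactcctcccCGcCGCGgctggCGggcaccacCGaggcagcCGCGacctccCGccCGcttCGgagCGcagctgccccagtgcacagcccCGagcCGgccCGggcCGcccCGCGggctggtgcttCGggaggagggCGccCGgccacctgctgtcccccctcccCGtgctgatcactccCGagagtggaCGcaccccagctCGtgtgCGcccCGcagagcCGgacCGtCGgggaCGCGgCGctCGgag
Gabbr2, chr5:66083696-66083945, minus strand: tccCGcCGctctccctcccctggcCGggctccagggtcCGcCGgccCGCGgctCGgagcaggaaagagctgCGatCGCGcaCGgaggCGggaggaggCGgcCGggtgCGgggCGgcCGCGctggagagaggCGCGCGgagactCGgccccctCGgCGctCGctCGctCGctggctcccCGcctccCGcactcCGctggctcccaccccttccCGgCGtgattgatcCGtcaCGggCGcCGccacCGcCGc
Grm8, chr4:57687507-57687756, minus strand: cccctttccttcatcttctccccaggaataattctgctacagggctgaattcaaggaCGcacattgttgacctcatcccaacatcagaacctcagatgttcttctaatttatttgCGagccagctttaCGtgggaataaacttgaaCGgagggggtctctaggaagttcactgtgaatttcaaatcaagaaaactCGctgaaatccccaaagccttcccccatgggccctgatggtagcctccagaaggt

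Gabrd had 35 CG in these bases, Gabrg3 33, Gabbr2 39 and Grm8 5, against a median of 5 over 33469 RefSeq promoters of the same length and 9 over the 27 members with an entry. The members without one were Gabra2, Gabrp, Gria1, Gria2, Gria3, Grid1, Grin2a, Grin2b, Grin3b, Grm2, Grm3 and Grm4. A threshold of 33 CG, taken after the values were seen, was met by 6 of the 27 (Gabbr2, Gabra4, Gabra5, Gabrd, Gabrg3 and Grik3) and by 3.6% of all promoters. Of these 6, 2 had a peak within 1 kb, Gabrd and Gabrg3; Grik3, with 41 CG, had its nearest peak at 20.6 kb, and Gabbr2, Gabra4 and Gabra5 had none. The motif GGGCGG, the GC box, was searched on both strands: it stood 4 times before Gabrd, 2 times before Gabrg3, 1 time before Gabbr2 and 0 times before Grm8, and 30.5% of all promoters hold it. The palindrome CAGCTG, an E-box of the kind bound by basic helix-loop-helix factors, stood 1 time before Gabrg3 and 0 times before the other 3, and 12% of all promoters hold it. These are matches of letters, and the start in GRCr8 may not be the start to which the rn6 distances refer.

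Grid1 encodes delta receptor subunit GluD1, which organises synapses, and had 4 peaks. The peak at chr16:11170595-11170799 was centred at -134 bp from the TSS (upstream) and covered -236 to -32 bp, with a score of 7.66. It was the 1 promoter peak of the set, 2.78% of the 36, against 4.02% of all OPC peaks. A neighbouring peak at chr16:11170981-11171185 lay in the CpG island of intron 1 of 16, centred 252 bp downstream, also with a score of 7.66; the starts of the 2 are 386 bp apart. A peak in intron 2 lay at 34.7 kb (chr16:11205440-11205644, score 8.3), and another in a SINE repeat at -52.3 kb (chr16:11118382-11118586, score 6.38). Grid1 held the closest peak of the set, and the median distance of its 4 peaks was 17.5 kb.

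In the GABA-A family, the delta subunit gene Gabrd, whose receptors lie outside synapses, had 1 peak centred 291 bp downstream of its TSS, in the CpG island of intron 1 of 8 (chr5:172808981-172809185, score 6.38). Gabrg3, a gamma subunit gene, had a peak centred 256 bp downstream in the CpG island of intron 1 of 9 (chr1:112811596-112811800, score 7.66). Its other peak lay in an L1 repeat of intron 2 at 21.5 kb (chr1:112790307-112790511, score 7.66). The island peaks of Grid1, Gabrd and Gabrg3 thus sat at nearly the same distance, 252 to 291 bp downstream. The labels limit this distance: the promoter class runs from 1000 bp upstream to 100 bp downstream and carries no CpG label. A peak centred within that range would therefore not be listed as an island peak. An intron peak centred between 100 and 252 bp downstream could be. Within 1 kb of a TSS lay 4 of the 36 member peaks, 11.1%, against 9.47% of all OPC peaks, so the share of close peaks was near that of the whole list.

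A cluster of GABA-A genes on rat chromosome 14 runs Gabrb1, Gabra4, Cox7b2, Gabra2, Gabrg1 in gene order, and 3 of its 4 receptor genes had a peak. Gabrb1, a beta subunit gene, had the highest score of the set, 17.2, in a RatSatRep2 repeat 15.9 kb upstream (chr14:39128393-39128597). That score was reached by 0.583% of all OPC peaks. Gabra2, an alpha subunit gene, had a peak in intron 3 of 9 at 21 kb (chr14:39683339-39683543, score 6.38), and Gabrg1 one in an L1 repeat between genes at 383.9 kb (chr14:40348384-40348588, score 6.38). The 3 peaks spanned 1220.2 kb. Gabra6 and Gabrb2 of the chromosome 10 cluster had no peak, and neither did Gabra5, which stands beside Gabrg3. The peak assigned to Gabrp, the pi subunit gene, lay 136.4 kb upstream inside intron 1 of Kcnip1, a potassium channel partner gene, so its place in a gene is not in Gabrp itself.

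AMPA receptor genes had 5 peaks, the nearest at 8.58 kb. Gria2 encodes the subunit that, once edited, makes AMPA receptors impermeable to calcium; its peak lay 8.58 kb upstream in an L1 repeat (chr2:179713105-179713309, score 7.66). Gria1 had a peak in an L1 repeat 231.7 kb upstream (chr10:42209905-42210109, score 10.9). Gria4 had 3 peaks inside the gene, at 60.6 and 118.6 kb in intron 3 and at 224.8 kb in intron 4 of 16, with scores of 8.3, 10.2 and 7.02. All 5 AMPA peaks were in repeats, 4 in L1 and 1, the middle Gria4 peak, in RatSatRep2. Annotated repeats held 33.2% of all OPC peaks. Among peaks of other genes more than 100 kb from a TSS they held 52.2%, and 3 of the 5 AMPA peaks lay that far.

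Kainate receptor genes showed another arrangement, with 7 peaks that all lay downstream of the TSS and inside the gene. Grik3, which encodes GluK3, had 4 over 146.2 kb: at 20.6 and 71.2 kb in intron 1 of 15, at 149.4 kb in exon 4 of 16 and at 166.8 kb in intron 8. Their scores were 7.02, 6.38, 7.66 and 7.02. The exon peak (chr5:143649745-143649949) was the 1 exon peak of the set, 2.78% of the 36, against 6.8% of all OPC peaks. None of the 3 intron peaks was in an annotated repeat, and exon peaks carry no repeat label. Grik4, a subunit gene of the high-affinity class, had peaks at 35 and 118.0 kb in intron 2 of 20, each with a score of 7.02, and Grik2 had one in an L1 repeat of intron 1 at 179.6 kb (score 7.66).

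NMDA receptor genes had 6 peaks, the nearest at 28.5 kb. Grin2b, the glutamate-binding subunit of immature brain, had 2 in intron 3 of 12 at 246.5 and 251.3 kb, whose starts were 4.77 kb apart (scores 6.38 and 7.66). Grin2a, which gains in level as the brain matures, had 1 in a SINE repeat of intron 3 of 13 at 187.0 kb (score 6.38). Grin3a, whose subunit lowers calcium entry, had 2 peaks between genes far upstream, at 267.4 and 1357.4 kb (scores 8.3 and 10.2). The peak assigned to Grin2c at 28.5 kb lay inside intron 9 of Tmem104, a neighbouring gene (chr10:103787454-103787658, score 7.02).

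All metabotropic peaks belonged to mGlu genes. Of group I, which couples to phospholipase C, Grm5 had a peak between genes 10.9 kb upstream (chr1:151207941-151208145, score 6.38). Of group II, which lowers cyclic AMP, Grm3 had 2 between genes, 397.9 and 484.0 kb upstream (scores 6.38 and 7.02). Of group III, which also lowers cyclic AMP, Grm8 had a peak in a CpG island 9.96 kb upstream (chr4:55408973-55409177, score 7.66), and Grm4 one in intron 1 of 8 at 41.2 kb (chr20:7053318-7053522, score 6.38). Grm7, another gene of group III, had 1 in an L1 repeat 348.7 kb upstream (chr4:142103821-142104025, score 12.1) and 1 in an L1 repeat of intron 7 of 9 at 654.2 kb (chr4:143106716-143106920, score 8.94). Chromosome 4 held 5 of the 7 metabotropic peaks, at Grm3, Grm7 and Grm8.

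**Figure D2:**
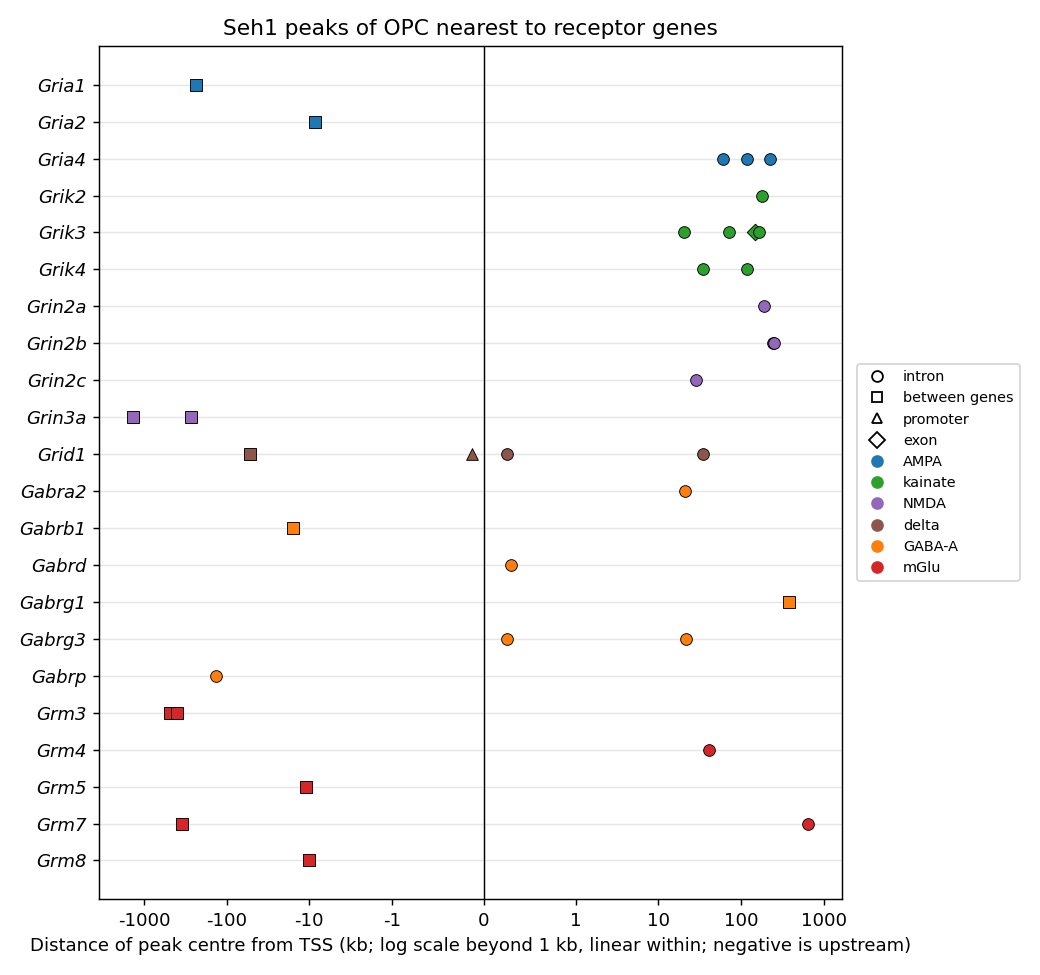
Each point is 1 OPC peak, placed by the distance of its centre from the TSS of its nearest gene (kb, log scale beyond 1 kb, linear within), with 1 line per receptor gene, colour for the family and shape for the annotated class. Kainate peaks all lie downstream (20.6 to 179.6 kb), metabotropic peaks between genes lie upstream (9.96 to 484.0 kb), and 4 peaks at Grid1, Gabrd and Gabrg3 lie within 1 kb.

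By class, most ionotropic peaks lay in introns and most metabotropic peaks between genes. Introns held 20 of 29 ionotropic peaks, 69% (exact binomial 95% interval 49.2 to 84.7%), and 2 of 7 metabotropic peaks, 28.6% (3.67 to 71%), beside 29.4% of all OPC peaks. Between genes lay 7 of 29, 24.1% (10.3 to 43.5%), and 5 of 7, 71.4% (29 to 96.3%), beside 56.7% of all. The intervals of the 2 kinds of receptor overlap, and with peaks of 1 gene sharing that gene the difference was not tested. The shares beside those of all OPC peaks were not matched for gene length. Of the 22 intron peaks of members, 20 lay in the member itself and 17 of these in introns 1 to 3, with 7 in intron 1, 4 in intron 2 and 6 in intron 3. The same count over all OPC intron peaks was not made, so whether this spread is particular to the members is unknown.

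By distance, the median was 71.2 kb for ionotropic peaks (95% interval of the median from order statistics 21.5 to 179.6 kb) and 348.7 kb for metabotropic peaks (9.96 to 654.2 kb), beside 34.8 kb for all OPC peaks. Over all 36 member peaks it was 94.6 kb (28.5 to 187.0 kb). With 1 peak per gene, the nearest, the medians were 35 kb over 17 ionotropic genes and 41.2 kb over 5 metabotropic genes, so the gap between the 2 kinds rests on the farther peaks of Grm3 and Grm7: without either gene the metabotropic median was 41.2 kb, below the ionotropic one. Leaving out peaks in repeats also turned the order, with 34.8 kb over 16 ionotropic and 10.9 kb over 3 metabotropic peaks, and without Grid1 the ionotropic median was 118.6 kb. Of the member peaks 18 of 36 (50%) lay more than 100 kb from a TSS, against 26.6% of all OPC peaks, again without matching for gene length. Downstream of the TSS lay 21 of 29 ionotropic peaks, 72.4% (52.8 to 87.3%), and 2 of 7 metabotropic peaks, 28.6% (3.67 to 71%), against 57.6% of all. This share is not independent of the intron share, because a peak in an intron mostly lies downstream of its TSS. Among intron peaks, 19 of 20 ionotropic, 2 of 2 metabotropic and 2262 of all 2674 were downstream. Of the 12 member peaks between genes 11 were upstream, the exception being Gabrg1, whereas 2076 of all 5154 such peaks lay downstream.

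**Figure D3:**
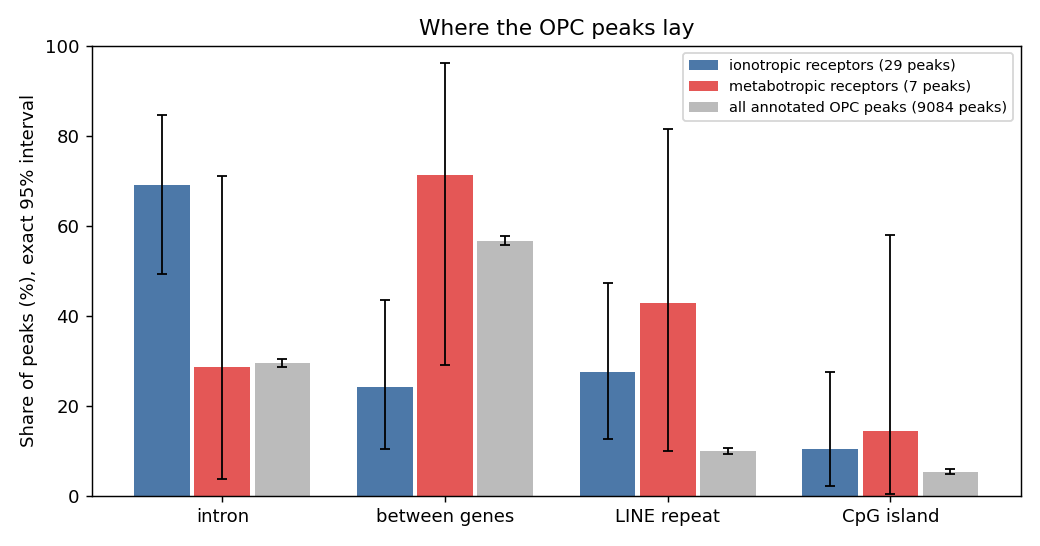
Bars give the share of peaks (percent) in introns, between genes, in LINE repeats and in CpG islands for ionotropic receptor genes (29 peaks), metabotropic receptor genes (7 peaks) and all annotated OPC peaks (9084), with exact 95% intervals. The ionotropic intron share (69%) is above that of all peaks (29.4%), without matching for gene length, and the intervals of the metabotropic bars are wide.

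Repeats of the LINE class, copies of retrotransposons, held 11 of 36 member peaks, 30.6% (exact binomial 95% interval 16.3 to 48.1%), against 9.93% of all OPC peaks (9.32 to 10.6%). All 11 were of the L1 family and came from 9 genes: Gabrg1, Gabrg3, Gria1, Gria2, Gria4, Grik2, Grin3a, Grm3 and Grm7. By repeat name, 4 were RNHAL1, 3 L1_Rat1, 2 L1_Rn, 1 L1_Rn2 and 1 Lx5b. LINE peaks were 8 of 29 in ionotropic genes (27.6%) and 3 of 7 in metabotropic genes (42.9%). Distance moved with this share: among OPC peaks of other genes more than 100 kb from a TSS, LINE repeats held 22.2%, and among the 18 such member peaks 44.4% (21.5 to 69.2%). In introns the shares were 22.7% of 22 member peaks (7.82 to 45.4%) and 6.11% of other peaks, and between genes 50% of 12 (21.1 to 78.9%) and 14.2%. Among the 150 peaks of the neighbouring genes the share was 13.3% (8.34 to 19.8%). How reads with several equal matches were placed is not given in the sources used here, and its part in these shares was not tested.

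The share of member peaks at or above the median score of the list was close to that of all OPC peaks. The score that the peak caller gave, taken from the authors' deposited table, ran from 6.38 to 17.2 with a median of 7.34 over the 36 peaks, and the median over all OPC peaks was 7.66. Of the member peaks 18 of 36 (50%) reached 7.66, as did 51.9% of all. The lowest member score, 6.38, was held by 10 of 36 peaks, 27.8%, while 18.6% of all OPC peaks scored 6.38 or less. That limit was set by the members' own values, and the difference was not tested. The quartiles were 6.38 and 7.82 for member peaks and 7.02 and 8.3 for all. A score of 10 or more, a limit chosen after the values were seen, was reached by 5 member peaks, 13.9%, against 5.52% of all: Gabrb1 at 17.2, Grm7 at 12.1, Gria1 at 10.9, and Gria4 and Grin3a at 10.2. All 5 lay in LINE or RatSatRep2 repeats, which held 142 of the 501 OPC peaks with such scores, 28.3%. The next scores in order were 8.94 (Grm7) and 8.3 (Gria4, Grid1 and Grin3a). The focus ratio, a fraction that the caller gives for how concentrated the reads of a peak are, had a median of 0.73 over member peaks (0.562 to 0.923) and 0.778 over all OPC peaks.

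**Figure D4:**
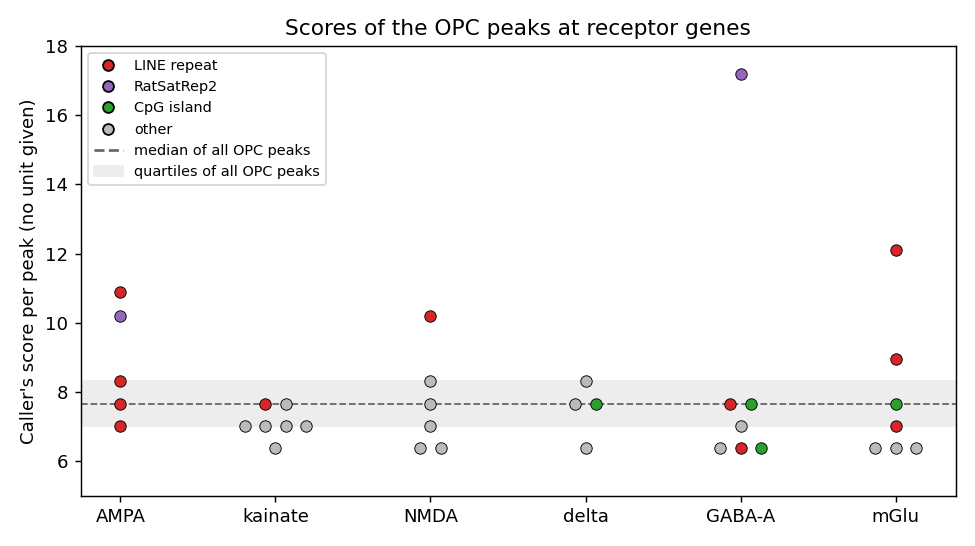
Each point is the caller's score of 1 OPC peak, by receptor family, coloured by the repeat or CpG island it lies in. The dashed line and the grey band are the median (7.66) and quartiles (7.02 and 8.3) of all OPC peaks; the 5 peaks of 10 or more are all in LINE or RatSatRep2 repeats.

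None of the member peaks was called again in iOL. Counting any overlap of 1 bp or more, 0 of the 36 were shared, which allows a share of up to 8.33%; over all annotated OPC peaks the share was 1.73%, so a count of 0 among 36 does not tell the members from the list. The closest iOL peak lay 7.51 kb away, at the Grin2c peak, and the median gap was 159.3 kb for member peaks and 88.3 kb for all. For 16 of the 22 members with a peak, the TSS could be placed from the peak distances and the strand, and iOL peaks between that TSS and an OPC peak were then tied to the gene. There were 3 such iOL peaks: 1 at Grin2c, 20.7 kb downstream (chr10:103795167-103795375), and 2 at Grin3a, upstream at -95.8 and -453.0 kb (chr5:65168751-65168959 and chr5:65525932-65526140). This search finds only iOL peaks that lie nearer to the TSS than an OPC peak does.

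Other genes of glutamate and GABA signalling were looked up from a list chosen, like the members, with earlier results known, and some of its genes are not reported here. Its shares are descriptions of the genes reported. Of these 51 genes 22 had an OPC peak, 43.1%, with 36 peaks, beside the 30.1% of all genes. Among 6 GABA-A receptor genes outside the set 1 had a peak, Gabrr2. Of 14 auxiliary subunit genes 9 had a peak (64.3%), the closest at the AMPA receptor partner Cacng2 (-581 bp), at Shisa7 (751 bp) and at the kainate receptor partner Neto1 (-777 bp). Of 17 scaffold genes 8 had one (47.1%), with those of Dlg3 and Dlg1 in the 5′ UTR at 221 and 262 bp and that of Shank1 at 1.08 kb.

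Of 10 transporter genes 3 had a peak (30%): Slc1a1, a glutamate carrier, with 3 including 1 at -478 bp, Slc32a1, the vesicular GABA carrier, with 2, and Slc6a13 with 1. Of 4 enzyme genes 1 had a peak (25%), the glutamine synthetase gene Glul with 5, while Gad1 and Gad2, which make GABA, had none. The nearest Glul peak lay in an exon at 7.76 kb, and its others lay between genes, 326.9 to 501.8 kb downstream. Of the 36 peaks of this list, those shared with iOL were at Neto2, Cacng4 and Slc1a1, beside 0 of the 36 member peaks and 1.73% of all OPC peaks. The shared Neto2 peak lay in a 7SL copy, and the shared Cacng4 and Slc1a1 peaks lay in 7SK copies. Whether these shares differ from that of the members was not tested.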

How the data were processed

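Bowtie2 and HOMER are named without versions in the submitters' processing notes, with builds rn6 and hg18; peak thresholds and read filters: not given in the sources used here. Per the file headers, the authors deposited 1 table made on rn6 with annotatePeaks.pl of HOMER, and beside it 1 list of peak positions per Seh1 library. GEO files this table with the iOL library, but all 9084 of its intervals equal OPC intervals and 0 equal iOL intervals; its header names IgG of iOL as the partner, and the other 33 OPC peaks have no annotation. The score, which the header does not define, the focus ratio (a fraction) and the distances are the authors' deposited values; medians use distances without sign. A gene had a peak when the table named it as nearest. Repeat and CpG labels are given between genes and in introns only.

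The 18539 coding genes with RefSeq NM transcripts in GRCr8 gave the shares over all genes. Intervals are exact binomial at 95% (scipy 1.17.1, pandas 2.3.3, Python 3.11.15). With 1 library per group no test was made. Counting was tested on simulated data. Members, lists and alternatives were chosen with earlier results of these data known. Gene order neighbours, LINE shares, CG counts and the score limits of 10 and 6.38 were added after the values were seen. By rule, members were named with their peaks for a peak within 10 kb, 5 or more peaks, one of the 10 highest scores, a promoter, exon, UTR or gene-end peak, or one shared with iOL; the other members with a peak were added afterwards. Some genes of the list of other signalling genes are not reported here, and its shares are over the genes reported.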

Additional observations from a re-analysis of the deposited data

How the results depend on the processing

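Counts of peaks and genes depended on what counts as a gene's peak. The 36 member peaks became 15 within 50 kb of a TSS, 18 at scores of at least the median, 19 without repeats and 22 annotated to a transcript of the member itself or its promoter, a setting added after seeing the data. The 22 genes with a peak became 12 under each of these 4 settings and 14 with gene body classes alone; the same settings lower the share over all genes as well, to 22.1% within 50 kb, 18.8% at the median score, 22.7% without repeats, 12.4% in that added setting and 16.3% in gene bodies. The members' share was 35.9% in gene bodies and 30.8% otherwise. Gene body classes also count a peak that lies in another gene, as the peaks of Gabrp (in Kcnip1) and Grin2c (in Tmem104) do. Intron shares stayed within their intervals, from 53.3 to 81.2% for ionotropic and from 20 to 40% for metabotropic genes. Median distances also stayed within theirs, but the intervals are wide: 34.8 to 118.6 kb for ionotropic and 10.9 to 348.7 kb for metabotropic genes. Their order was turned without repeats and without Grm3 or Grm7 (41.2 kb each). The count shared with iOL was 0 under each overlap rule. Read depth is unknown, and 7 metabotropic peaks limit every share of that kind.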
